A study of Mus musculus with 20 samples.

Results

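Creatine kinase, adenylate kinase and AMP-activated protein kinase (AMPK) form the system with which striated muscle carries, buffers and senses its high-energy phosphate, and 10 of their genes are described here in the heart and femur muscle of mice with a knockdown of Taz. Creatine kinases pass phosphate between ATP and creatine: a mitochondrial isoform charges creatine beside the inner membrane, where it binds cardiolipin, and cytosolic isoforms recharge ADP at the myofibrils and pumps. Adenylate kinases turn ADP into ATP and AMP, and AMP switches on AMPK, which favours fuel oxidation over synthesis. Taz encodes tafazzin, the enzyme that remodels cardiolipin, and is the gene mutated in Barth syndrome, a disease of heart and skeletal muscle.

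The 10 genes were taken by symbol, through their Ensembl identifiers, from both count tables. They were the creatine kinases Ckm, Ckmt2 and Ckb, the creatine transporter Slc6a8 with the synthesis enzymes Gatm and Gamt, the adenylate kinases Ak1 and Ak4, and the AMPK catalytic subunits Prkaa2 and Prkaa1. All 10 were among the 47069 genes of the heart table and the 53801 of the muscle table, and all 10 passed the filter on low counts in both, beside 19486 genes tested in heart and 16145 in muscle.

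Taz-KD mice carried the ROSA26H1/tetO-shRNA:TAZ transgene, which expresses a short hairpin RNA against Taz under doxycycline in the whole animal, so that changes in heart or muscle need not start in that tissue. WT mice were C57BL/6N. Both genotypes were fed chow with doxycycline at 625 mg/kg until the end of the experiment at 20 weeks of age, so that the drug was shared. Whether the genotypes differed in more than the transgene, such as in sex or background strain, was not examined. Each of the 4 groups (Taz-KD and WT, heart and muscle) held 5 libraries of ribosomal RNA-depleted total RNA, 1 per mouse, and the hearts and muscles carried different animal numbers, by which single libraries are named below (such as R2 or A55).

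Libraries held 30248445 to 35301909 counts in Taz-KD hearts and 26963288 to 30090918 in WT hearts, so that every Taz-KD heart was sequenced more deeply than every WT heart. In muscle they held 46985694 to 74361382 counts in Taz-KD mice and 36429399 to 61100247 in WT mice. Values are given below as counts per 1000000 counts of the library (CPM), scaled by the trimmed mean of M-values (TMM). Taz itself averaged 11.7 ± 0.731 CPM in Taz-KD hearts and 37.8 ± 1.40 CPM in WT hearts, and 13.4 ± 1.05 CPM in Taz-KD muscles and 51.7 ± 3.42 CPM in WT muscles (SD, n = 5 each). It did not overlap between genotypes in either tissue (exact two-sided permutation test, p = 0.00794 in each, the smallest that 5 against 5 allows), as the labels give it.

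The tissue labels were checked against marker genes. The 6 cardiomyocyte markers summed to 37760 to 51740 CPM in Taz-KD hearts and 38430 to 52280 CPM in WT hearts, and none passed the test. Of the 4 red cell markers 3 were lower in Taz-KD hearts, with sums of 279.0 to 436.7 CPM in Taz-KD hearts and 401.4 to 707.7 CPM in WT hearts. Of the skeletal muscle fibre markers Acta1, the skeletal alpha-actin, rose, at 533.0 to 1493 CPM in Taz-KD hearts and 35.5 to 383.8 CPM in WT hearts. The other 4 had ratios of Taz-KD to WT means of 0.398 (Tnni2, under the filter), 0.512 (Ryr1), 0.822 (Tnnt3) and 0.986 (Cacna1s), and none of the 3 tested passed. The fast fibre markers, of which only Mybpc2 passed the filter and was lower, summed to 2.96 to 6.00 CPM in Taz-KD hearts and 8.27 to 47.2 CPM in WT hearts, and of the slow fibre markers Tnnt1 and Myl3 were lower. The part of these markers and of depth in the heart results was not tested. In muscle the skeletal muscle fibre markers summed to 54470 to 77390 CPM in Taz-KD mice and 39390 to 72490 CPM in WT mice. Femur muscle libraries differed in fibre type, and 2 WT muscles stood apart. The fast glycolytic fibre markers summed to 57070 to 108800 CPM in Taz-KD muscles, and among WT muscles to 11730 CPM in A55 and 44970 to 102000 CPM in the others. The slow fibre markers of A55 reached 18760 CPM, the highest of all muscles. The adipocyte markers summed to 2.89 to 79.8 CPM in Taz-KD muscles, and among WT muscles to 1170 CPM in A33 and 24.0 to 341.5 CPM in the others. Without A33 and A55, 0 of the 10 genes passed in muscle (edgeR adjusted p of 0.937 to 0.998), and their log2 fold changes lay between -0.40 and 1.31.

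Proximal promoters are shown for Ckmt2, which fell in Taz-KD hearts, for its cytosolic partner Ckm, which did not pass the test there, for Ckb, which had the largest fold change of the 10 genes in heart, and for Prkaa2, the gene of the 10 that rose in Taz-KD hearts. Each is the 250 bases before the RefSeq transcription start on GRCm38.p6, written 5′ to 3′ on the gene's strand, with E-boxes (CANNTG, letters that basic helix-loop-helix factors such as MyoD bind) in capitals. Ckm lies on the plus strand at chr7:19410844-19411093, and the others on the minus strand, Ckmt2 at chr13:91876886-91877135, Ckb at chr12:111672339-111672588 and Prkaa2 at chr4:105109899-105110148.
Ckm: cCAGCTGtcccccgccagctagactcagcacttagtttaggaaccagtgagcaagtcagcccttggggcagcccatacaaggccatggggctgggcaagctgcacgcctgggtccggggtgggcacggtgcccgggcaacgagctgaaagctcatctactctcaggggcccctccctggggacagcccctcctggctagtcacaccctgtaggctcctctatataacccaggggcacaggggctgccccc
Ckmt2: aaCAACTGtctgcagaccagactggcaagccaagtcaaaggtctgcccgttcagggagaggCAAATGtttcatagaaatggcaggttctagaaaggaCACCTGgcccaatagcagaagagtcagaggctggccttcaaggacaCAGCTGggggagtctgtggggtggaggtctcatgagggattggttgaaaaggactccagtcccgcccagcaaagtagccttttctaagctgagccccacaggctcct
Ckb: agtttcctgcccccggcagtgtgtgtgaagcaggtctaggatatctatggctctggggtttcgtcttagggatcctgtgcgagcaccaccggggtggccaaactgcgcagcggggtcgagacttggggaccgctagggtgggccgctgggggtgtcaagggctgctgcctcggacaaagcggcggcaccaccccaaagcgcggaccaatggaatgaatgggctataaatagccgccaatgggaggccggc
Prkaa2: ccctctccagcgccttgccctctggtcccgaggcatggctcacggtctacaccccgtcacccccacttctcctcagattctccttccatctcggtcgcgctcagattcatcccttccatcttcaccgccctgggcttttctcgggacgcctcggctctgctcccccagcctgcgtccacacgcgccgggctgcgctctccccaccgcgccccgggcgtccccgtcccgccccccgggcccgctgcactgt

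The Ckmt2 window held 4 E-boxes and the Ckm window 1, while those of Ckb and Prkaa2 held 0. An E-box occurred in 66.2% of all 32851 promoter windows of this length, so its presence is common. Ckb had a TATA box (TATAAA, either strand) 28 bases before its start, a motif in 12.4% of windows. Only these exact letters were searched, so the TATATAA near the end of the Ckm window was not counted. CCAAT on either strand occurred at 2 places in the Ckb window and at 2 in the Ckmt2 window, and in 33.8% of windows. The Prkaa2 window had neither, and none of the 4 windows held AAGGTCA on either strand, the half-site of oestrogen-related receptors (4.1% of windows). Of the 10 genes, 9 had a window in the RefSeq table, Slc6a8 being the other, and Ak1 and Ak4 each had several starts and are not shown. These matches describe the letters and are not evidence of binding.

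In Taz-KD hearts 5 of the 10 genes passed the threshold of an adjusted p of 0.05. The mitochondrial creatine kinase Ckmt2, the brain-type Ckb and both adenylate kinases fell, and the AMPK subunit Prkaa2 rose. Over all genes tested in heart, 24.6% passed the test, 14.4% as higher and 10.3% as lower. The median log2 fold change of the 10 genes was -0.29, beside -0.02 over all genes tested. Values of 4 genes (Ckmt2, Ckb, Ak1 and Prkaa2) did not overlap between genotypes, as was so for 18.3% of genes tested. All 5 passed in each of the 10 fits that left out 1 heart, but in a fit of all 20 heart and muscle libraries, which estimates the spread over both tissues, only Ckb passed.

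**Figure D1:**
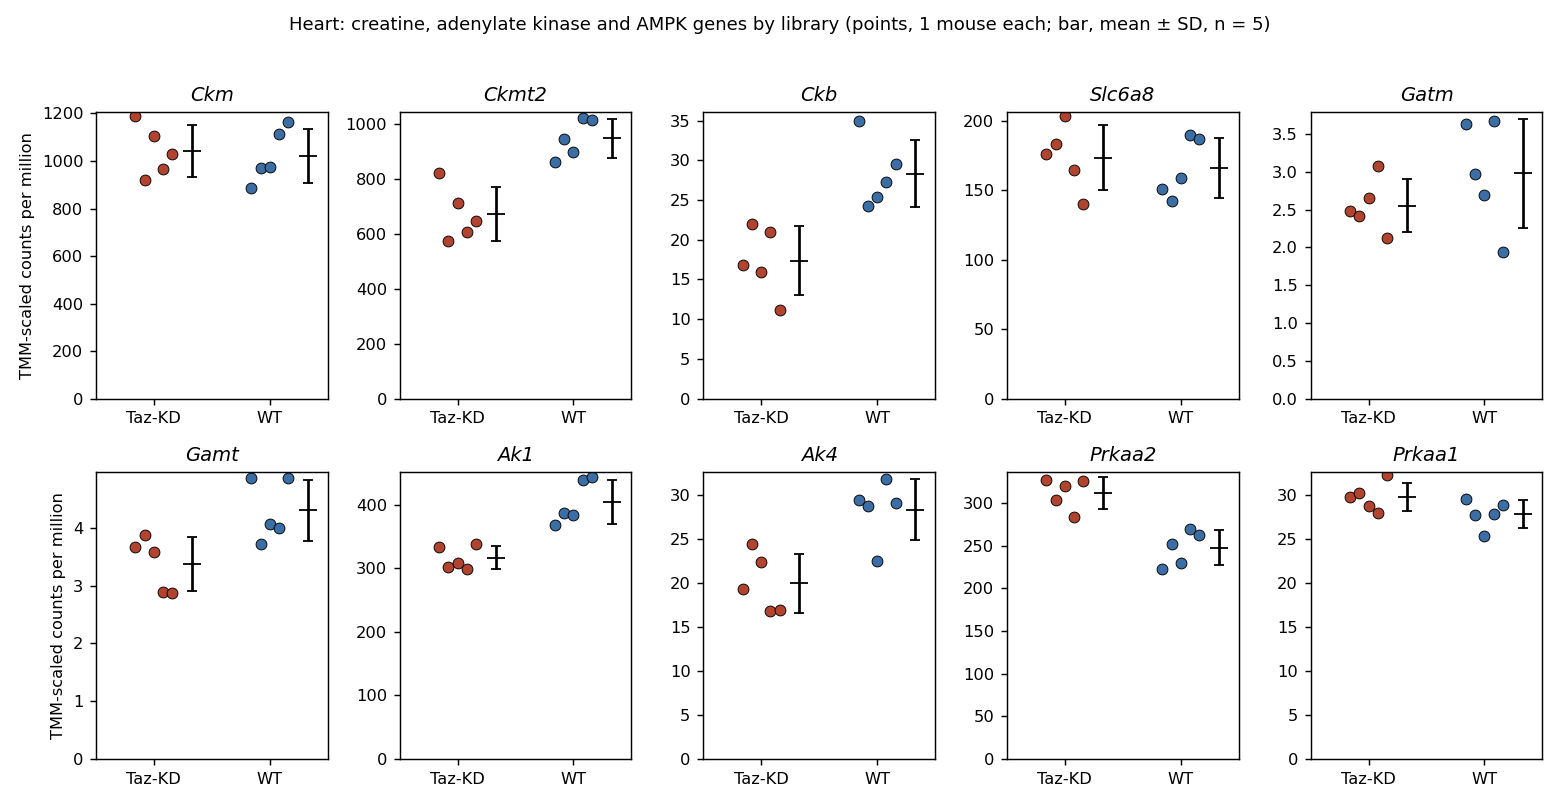
TMM-scaled CPM (linear axes from 0) of the 10 genes in each heart library, Taz-KD left and WT right, with points for single mice and a bar for the mean ± SD of 5. The Taz-KD points of Ckmt2, Ckb and Ak1 lie below every WT point and those of Prkaa2 above every WT point, whereas those of Ckm and Slc6a8 are intermingled.

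Ckmt2, the sarcomeric mitochondrial creatine kinase, was the most abundant of the 10 genes per kilobase in heart. It had 823.3, 573.9, 714.8, 608.7 and 648.9 CPM in the 5 Taz-KD hearts, against 861.5, 945.5, 898.2, 1023 and 1018 CPM in the 5 WT hearts. Every Taz-KD heart was below every WT heart, with the Taz-KD heart R2 closest to them. The mean was 673.9 ± 98.6 CPM in Taz-KD hearts and 949.2 ± 71.5 CPM in WT hearts (SD, n = 5 each), a log2 fold change of -0.49 (SE 0.10, edgeR adjusted p = 0.00309). Its exons share 84 bases with an antisense RNA, 1700119I11Rik.

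Ckm, the cytosolic muscle isoform bound in part at the sarcomere's M-line, did not pass the test. It had 1191, 918.7, 1104, 966.4 and 1028 CPM in Taz-KD hearts, against 888.0, 970.5, 974.4, 1115 and 1164 CPM in WT hearts. The genotypes overlapped over nearly their whole range, and the log2 fold change was 0.03 (SE 0.09, edgeR adjusted p = 0.869), with its sign negative in 5 of 22 alternative fits. An antisense RNA, A930016O22Rik, overlaps 15.5% of the Ckm exon length and was itself counted at 11027 to 17610 in heart libraries but at 890 to 2905 in muscle, where Ckm was far higher. Whether counting used the strand is not given in the sources used here.

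Ckb, the cytosolic isoform best known from brain and smooth muscle, was low in heart. Its 5 Taz-KD values were 16.8, 22.0, 15.9, 20.9 and 11.2 CPM, and its 5 WT values were 34.9, 24.2, 25.4, 27.3 and 29.6 CPM. The ranges did not overlap, though R1793 of the Taz-KD hearts lay close to the lowest WT heart. The means were 17.4 ± 4.31 CPM in Taz-KD hearts and 28.3 ± 4.22 CPM in WT hearts (log2 fold change -0.70, SE 0.17, edgeR adjusted p = 0.0102). Pseudogenes near-identical to Ckb over 100 bases or more were counted at 0 to 3 in any heart library.

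The genes most like Ckb over the 20 libraries, by Pearson's r of log2 CPM centred within each tissue among 14726 genes, were Eva1b (r = 0.94), Pear1, a receptor of platelets and endothelium (r = 0.93), and Grrp1 (r = 0.92). The points share library and genotype, so these values are a description. Of the 4 endothelial markers, Pecam1 and Tek were lower in Taz-KD hearts, and the 4 together summed to 529.1 to 642.2 CPM in Taz-KD hearts and 621.8 to 780.3 CPM in WT hearts. None of the 4 smooth muscle markers passed, with sums of 240.7 to 1131 CPM in Taz-KD hearts and 237 to 915 CPM in WT hearts. In bulk tissue fewer cells of a type and less RNA per cell cannot be told apart, and the part of endothelial content in the Ckb difference was not tested. Without R3, R1793 and R1797, the hearts with the highest smooth muscle sums, the log2 fold change of Ckb was -0.88 (edgeR adjusted p = 0.00268). R1793 (22.0 CPM) and R1797 (20.9) also had the highest Ckb of the Taz-KD hearts, and R3 (34.9) the highest of the WT hearts. Leaving them out thus also removed the highest Ckb values of each genotype, and the part of smooth muscle content was not tested.

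The make-up of creatine kinase transcripts in heart differed between genotypes. On the scale of CPM per kilobase of exon, Ckmt2 made up 57.2, 54.5, 55.6, 54.7 and 55.04% of the creatine kinase sum in Taz-KD hearts, against 64.6, 65.1, 63.8, 63.7 and 62.6% in WT hearts. The groups were separated by more than the spread within either. Ckm made up 43.8 ± 0.960% in Taz-KD hearts and 35.1 ± 1.05% in WT hearts (SD, n = 5 each). Ckb was 0.752 ± 0.252% in Taz-KD hearts and 0.986 ± 0.203% in WT hearts, and the ubiquitous mitochondrial isoform Ckmt1 was under the filter, at 0.0219% in Taz-KD hearts and 0.00840% in WT hearts. The share of Ckm was 8.79 percentage points higher in Taz-KD hearts, and 8.52 to 9.20 points higher with any 1 heart left out. These shares follow from the levels above and carry no test of their own.

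**Figure D2:**
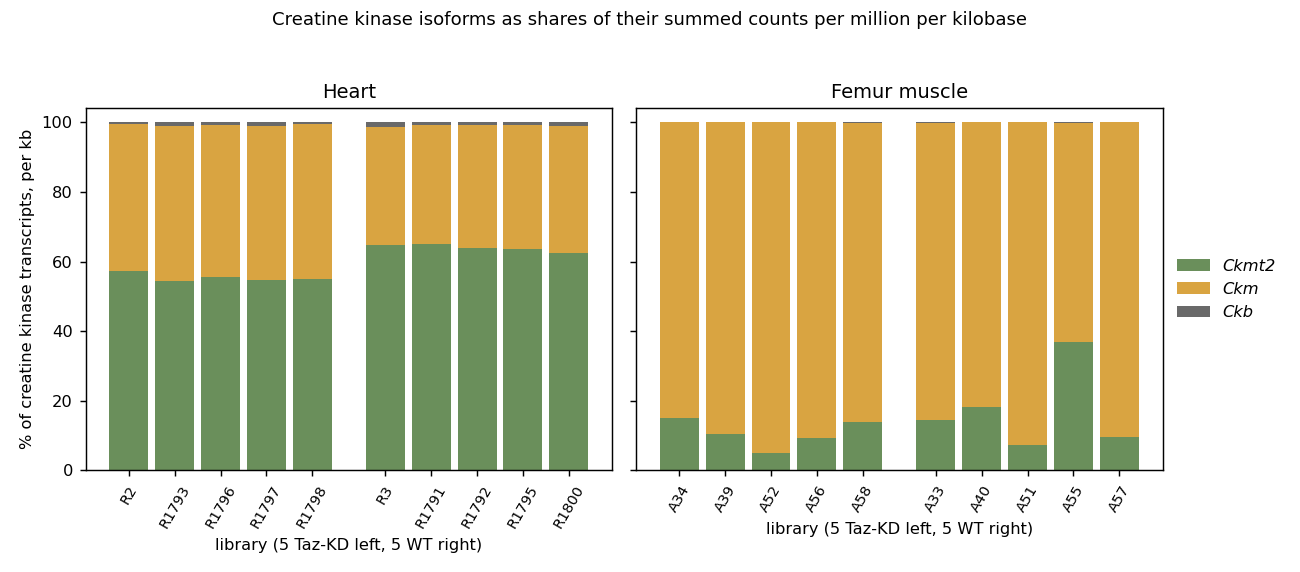
Ckmt2, Ckm and Ckb as percentages of the summed creatine kinase CPM per kilobase in each library, with the 5 Taz-KD libraries left of the 5 WT libraries. In heart Ckmt2 takes 54.5 to 57.2% in Taz-KD and 62.6 to 65.1% in WT mice, while in muscle Ckm dominates and the WT muscle A55 stands out with 36.9% Ckmt2.

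Genes of creatine supply did not pass the test in heart. Slc6a8, the transporter through which muscle takes creatine up from blood, had 176.2, 183.6, 203.4, 164.5 and 140.2 CPM in Taz-KD hearts, against 151.4, 142.4, 159.3, 190.0 and 187.4 CPM in WT hearts, which overlap widely (log2 fold change 0.06, SE 0.11, edgeR adjusted p = 0.713). Gatm and Gamt, which make guanidinoacetate and methylate it to creatine chiefly in kidney and liver, were the lowest of the 10 genes in heart. Gatm averaged 2.55 ± 0.349 CPM in Taz-KD hearts and 2.98 ± 0.721 CPM in WT hearts (log2 fold change -0.23, SE 0.18, edgeR adjusted p = 0.395). Gamt averaged 3.38 ± 0.468 CPM in Taz-KD hearts and 4.30 ± 0.527 CPM in WT hearts, a log2 fold change of -0.35 (SE 0.13) that missed the threshold with edgeR (adjusted p = 0.0688) and passed it with DESeq2 or upper-quartile scaling.

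Ak1, the cytosolic adenylate kinase of muscle, had 334.0, 302.7, 308.7, 299.2 and 337.9 CPM in Taz-KD hearts, against 367.5, 386.2, 383.8, 438.2 and 443.9 CPM in WT hearts. All Taz-KD values were lower than all WT values. The log2 fold change was -0.35 (SE 0.07, edgeR adjusted p = 0.00339). Ak4, an adenylate kinase of the mitochondrial matrix, had 19.3, 24.4, 22.4, 16.8 and 16.9 CPM in Taz-KD hearts, against 29.4, 28.7, 22.5, 31.8 and 29.1 CPM in WT hearts. It was lower in most Taz-KD hearts, but R1793 lay above the lowest WT heart, R1792. The log2 fold change was -0.50 (SE 0.12, edgeR adjusted p = 0.00876). A pseudogene, Ak3l2-ps, is 99.6% identical to Ak4 over 672 bases, so reads could be split between them. It was counted at 15 to 43 in heart libraries, where Ak4 averaged 654.2 counts in Taz-KD hearts and 814.8 in WT hearts.

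Prkaa2, the AMPK alpha2 subunit that predominates in striated muscle, had 326.7, 302.9, 320.4, 283.3 and 326.2 CPM in Taz-KD hearts, against 222.1, 252.1, 230.1, 270.0 and 262.4 CPM in WT hearts. It was higher in every Taz-KD heart than in any WT heart. The log2 fold change was 0.33 (SE 0.07, edgeR adjusted p = 0.00438), with means of 311.9 ± 18.7 CPM in Taz-KD hearts and 247.4 ± 20.6 CPM in WT hearts. Prkaa1, the alpha1 subunit of most other cells, had 29.8 ± 1.61 CPM in Taz-KD hearts and 27.9 ± 1.603 CPM in WT hearts. It did not pass (log2 fold change 0.10, SE 0.06, edgeR adjusted p = 0.287). A transcript level says nothing of AMPK activity, which depends on phosphorylation.

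Of the other genes of these pathways, 7 lists held 53 genes, of which 47 were tested in heart, 11 rose, 6 fell and 30 did not pass. Their median log2 fold change was 0.06, beside -0.02 over all genes tested. Of all genes tested in heart, 24.6% passed, 14.4% as higher and 10.3% as lower. The lists were drawn up by pathway with earlier results of these data known, so that their counts are a description. In the fit of all 20 libraries, 4 of the 17 called genes passed (Nt5e, Nme6, Slc25a5 and Vdac3) and 13 did not.

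Of 3 other adenylate kinases tested in heart, 1 rose and 0 fell. This was Ak6 (log2 fold change 0.38, SE 0.10, edgeR adjusted p = 0.0166), of which 56.5% of the exon length is shared with Taf9 on the same strand, and which no longer passed in the fit of all 20 libraries or without hearts R2 and R3, 1 of each genotype, whose animal numbers have another form than those of the other hearts.

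The genes that exchange ADP and ATP across the mitochondrial membranes moved in both directions, with 3 of 5 higher and 1 lower. Slc25a5, the adenine nucleotide translocase of proliferating and non-muscle cells, averaged 342.5 ± 19.4 CPM in Taz-KD hearts and 146.8 ± 20.8 CPM in WT hearts (SD, n = 5 each), a log2 fold change of 1.22 (SE 0.09, edgeR adjusted p = 1.63e-06). Its muscle paralogue Slc25a4, named after its value was seen, averaged 1805 ± 203.3 CPM in Taz-KD hearts and 2237 ± 253.9 CPM in WT hearts, with overlapping libraries (log2 fold change -0.31, SE 0.10, edgeR adjusted p = 0.0398). Slc25a4 lost its call in 9 of 22 alternative fits, 7 of them with 1 heart left out (R1793, R1796 or R1797 of the Taz-KD hearts, and any WT heart but R3). The outer membrane channels Vdac3 (log2 fold change 0.64, SE 0.06) and Vdac2 (0.29, SE 0.06) were also higher, and Vdac1 did not pass.

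Of the 11 tested genes that handle AMP and other nucleotides, 4 rose and 3 fell. Nt5c1a, the cytosolic nucleotidase that dephosphorylates AMP in heart, averaged 11.5 ± 0.973 CPM in Taz-KD hearts and 18.0 ± 0.988 CPM in WT hearts (log2 fold change -0.65, SE 0.07, edgeR adjusted p = 6.12e-05). Nt5e, the cell-surface nucleotidase CD73 that makes adenosine outside the cell, averaged 54.7 ± 15.9 CPM in Taz-KD hearts and 26.2 ± 4.15 CPM in WT hearts (log2 fold change 1.06, SE 0.18, edgeR adjusted p = 0.00180). Adenosine kinase, Adk, which returns adenosine to AMP, was lower (log2 fold change -0.36, SE 0.06), and the nucleoside diphosphate kinase Nme6 was higher (0.60, SE 0.11). The other 3 that passed, named after their values were seen, were Nt5c2 and Nme4, which rose, and the AMP deaminase Ampd3, which fell. Nme4 lost its call in 5 of 22 alternative fits, among them those without R1793 or without R1796, and Nt5c2 in 3.

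For AMPK beyond its catalytic subunits, 1 of 5 other subunits rose and 0 fell, and the counts of all 3 AMPK lists were shares below the 24.6% of all genes tested. Prkab2, the beta2 subunit of muscle, averaged 76.6 ± 10.0 CPM in Taz-KD hearts and 56.7 ± 6.03 CPM in WT hearts (log2 fold change 0.43, SE 0.10, edgeR adjusted p = 0.00603). Of 10 upstream kinases and partners, 2 rose, namely Stk11, the kinase LKB1 that phosphorylates AMPK (log2 fold change 0.28, SE 0.05), and its partner Cab39 (0.18, SE 0.05). Of 12 substrates 0 rose and 2 fell, namely Acacb, the acetyl-CoA carboxylase of the mitochondrial surface (-0.34, SE 0.09), and Pfkfb2, the heart phosphofructo-2-kinase (-0.35, SE 0.11). Prkab2 and Stk11 lost their calls only in the fit of all 20 libraries. Pfkfb2 lost its call in 11 of 22 alternative fits, 8 of them with 1 heart left out, and Cab39 in 6, among them those without R2, without R1796 or without R2 and R3 together. Acacb lost its call without the WT heart R1792 and in the fit of all 20 libraries.

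**Figure D3:**
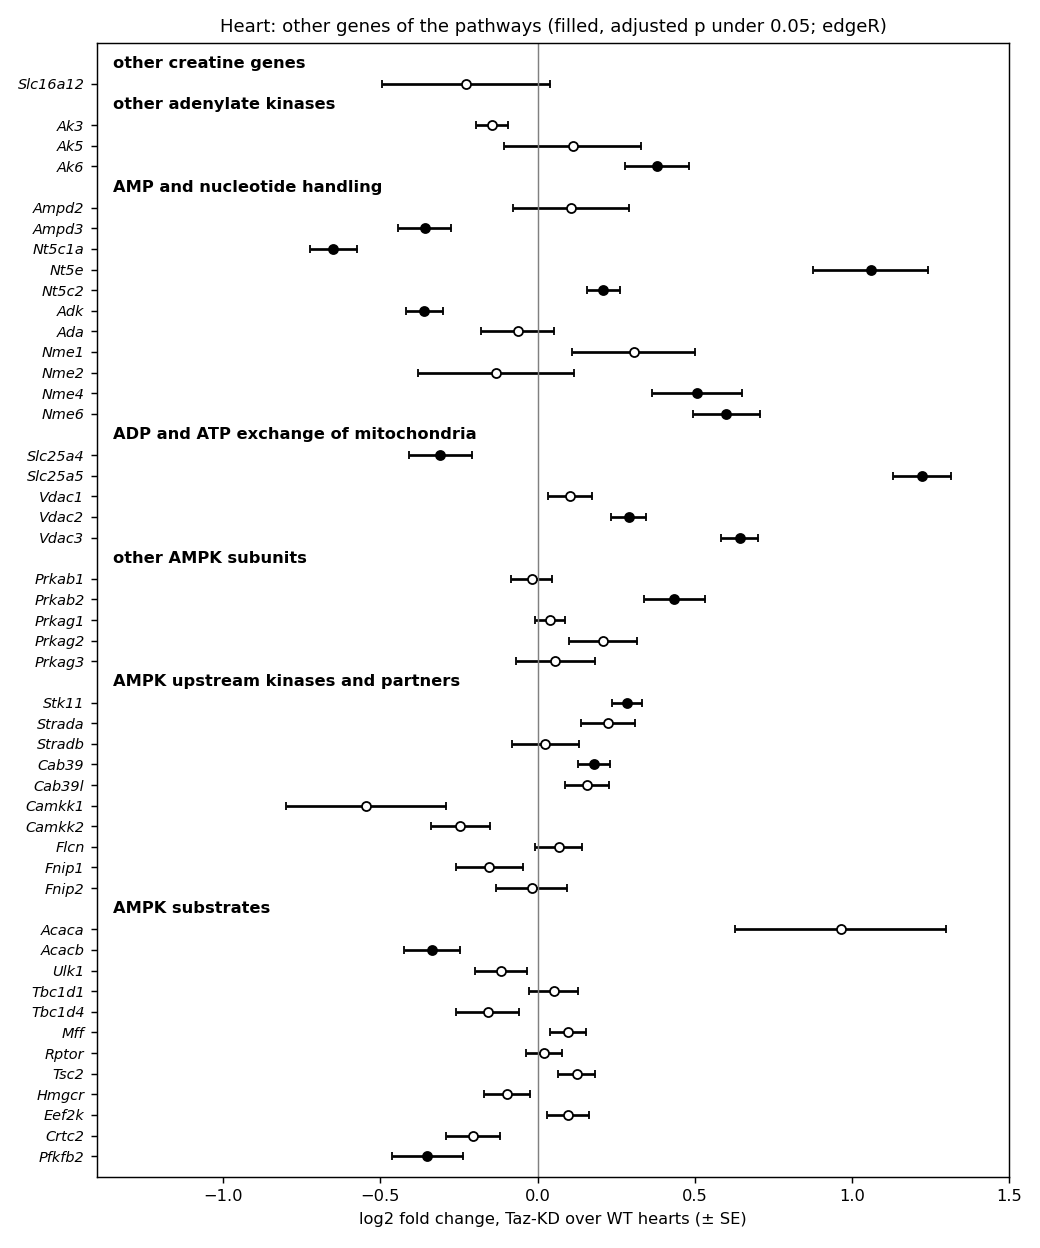
Log2 fold changes (Taz-KD over WT hearts, points) with their standard errors (bars) for the 47 tested genes of the 7 further lists, filled where the edgeR adjusted p was under 0.05. Slc25a5 at 1.22 and Nt5e at 1.06 lie farthest to the right, and Nt5c1a at -0.65 is the lowest filled point.

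In muscle none of the 10 genes passed the test (edgeR, 0 of 10, with 2 of 10 at an unadjusted p under 0.05 and 0 of 10 past the adjusted threshold with DESeq2 or limma-voom). Over all genes tested in muscle 0.0186% passed, 3 genes, which were Taz, Mthfd2 and Setd5 (the last 2 named after their values were seen), and 2408 had an unadjusted p under 0.05. The median log2 fold change of the 10 genes was 0.06, beside -0.02 over all genes tested. None of the 10 was without overlap between genotypes, as was so for 2.14% of genes tested.

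**Figure D4:**
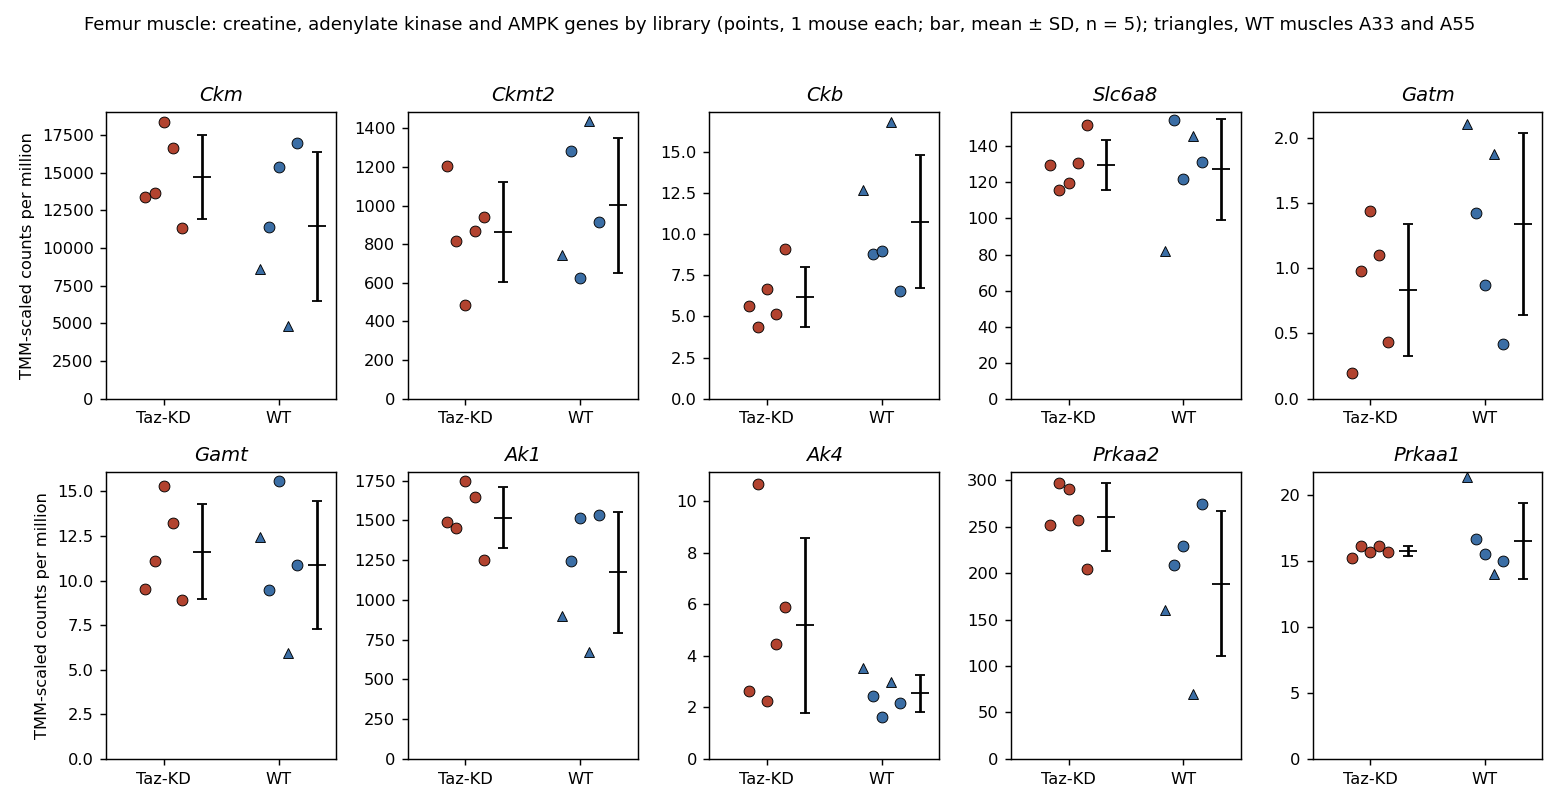
TMM-scaled CPM (linear axes from 0) of the 10 genes in each femur muscle library, Taz-KD left and WT right, with points for single mice and a bar for the mean ± SD of 5. The genotypes overlap for every gene, and the WT muscles A33 and A55, drawn as triangles, are the 2 lowest for Ckm, Ak1 and Prkaa2 and the 2 highest for Ckb.

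Ckm was by far the most abundant of the 10 genes in muscle. It had 13420, 13670, 18360, 16660 and 11350 CPM in Taz-KD muscles, against 8608, 11390, 15390, 4809 and 17000 CPM in WT muscles. The lowest WT values were those of A33 and A55, and the remaining 3 lay within the Taz-KD range. The log2 fold change was 0.36 (SE 0.32, edgeR adjusted p = 0.556) and was 0.01 without A33 and A55.

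Ak1 and Prkaa2 had the same order at their low end. Ak1 had 1489, 1455, 1749, 1646 and 1248 CPM in Taz-KD muscles, against 896.2, 1244, 1518, 671.4 and 1532 CPM in WT muscles. Prkaa2 had 252.0, 297.5, 290.3, 257.9 and 204.8 CPM in Taz-KD muscles, against 160.0, 208.9, 229.5, 70.1 and 275.1 CPM in WT muscles. A55 was the lowest library for both and A33 the next. Without these 2 muscles the log2 fold change of Ak1 was 0.08, against 0.37 (SE 0.23) with all, and that of Prkaa2 was 0.13, against 0.47 (SE 0.30) with all. A55 was also the muscle with the lowest fast glycolytic marker sum, and the part of fibre type in these differences was not tested.

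Ckmt2 had 1206, 817.8, 486.7, 869.9 and 942.9 CPM in Taz-KD muscles, against 744.2, 1284, 625.0, 1437 and 915.9 CPM in WT muscles, with the highest value in A55 (log2 fold change -0.21, SE 0.28, edgeR adjusted p = 0.698, and -0.13 without A33 and A55). As a share of creatine kinase transcripts per kilobase, Ckmt2 took 10.7 ± 4.01% in Taz-KD muscles and 17.3 ± 11.7% in WT muscles (SD, n = 5 each). The share was 6.53 percentage points lower in Taz-KD muscles, but 1.63 points lower without A55, which alone had 36.9%.

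Ckb had 5.64, 4.35, 6.69, 5.17 and 9.11 CPM in Taz-KD muscles, against 12.7, 8.82, 8.98, 16.8 and 6.56 CPM in WT muscles. The log2 fold change of -0.80 (SE 0.27) had an unadjusted p of 0.0132 and an edgeR adjusted p of 0.311, and it was -0.40 without A33 and A55, the 2 muscles with the highest values. In a joint fit of all 20 libraries, its heart fold change minus that in muscle was 0.02 (SE 0.31). Endothelial markers summed to 160.1 to 257.5 CPM in Taz-KD muscles and 220.9 to 308.4 CPM in WT muscles. Smooth muscle markers summed to 91.2 to 129.4 CPM in Taz-KD muscles and 108.1 to 229.4 CPM in WT muscles. Schwann cell and nerve markers summed to 80.6 to 484.2 CPM in Taz-KD muscles and 114.7 to 873.8 CPM in WT muscles. A55 had the highest sum of each of these lists and the highest Ckb. Adipocyte markers summed to 2.89 to 79.8 CPM in Taz-KD muscles and 24.0 to 1170 CPM in WT muscles. Their sum was highest in A33 (1170 CPM), the muscle with the next highest Ckb, and then in A55 (341.5 CPM). The part of these cell types in the muscle Ckb difference was not tested.

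Ak4 had 2.63, 10.7, 2.24, 4.44 and 5.89 CPM in Taz-KD muscles, against 3.52, 2.42, 1.64, 2.97 and 2.17 CPM in WT muscles. Of the Taz-KD muscles 3 lay above every WT muscle and 2 among them, with A39 the highest. The log2 fold change of 1.02 (SE 0.41, edgeR adjusted p = 0.315) was 0.58 without A39 and 1.31 without A33 and A55. Ak4 averaged 304.4 counts in Taz-KD muscles and 122.6 in WT muscles, and the pseudogene Ak3l2-ps 1 to 19 counts per library.

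The remaining muscle genes overlapped throughout. Slc6a8 averaged 129.7 ± 14.0 CPM in Taz-KD muscles and 127.2 ± 28.2 CPM in WT muscles, and Prkaa1 15.8 ± 0.370 CPM in Taz-KD muscles and 16.5 ± 2.88 CPM in WT muscles. Gamt averaged 11.6 ± 2.65 CPM in Taz-KD muscles and 10.9 ± 3.57 CPM in WT muscles. Gatm was the lowest, at 0.829 ± 0.506 CPM in Taz-KD muscles and 1.34 ± 0.696 CPM in WT muscles. Of the 7 further lists, 0 of 48 tested genes passed in muscle (edgeR), beside 0.0186% of all genes tested. An unadjusted p under 0.05 was held by 8 of the 48, beside 2408 of all 16145 genes tested.

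Whether the knockdown effect differed between heart and muscle was tested in a fit of all 20 libraries with an interaction term, in which 4.62% of 20612 genes passed. Of the 10 genes only Ak4 passed. Its heart effect minus its muscle effect was -1.61 on the log2 scale (SE 0.42, edgeR adjusted p = 0.0341), with the gene lower in Taz-KD hearts and a muscle fold change that did not pass by itself. The call was lost in 16 of 30 alternative fits, 13 of them with 1 of the 20 libraries left out. The difference lay between -1.83 and -1.10 over all 30, and without the Taz-KD muscle A39 it was -1.10 (edgeR adjusted p = 0.0669). Ak1 had a difference of -0.78 (SE 0.27, edgeR adjusted p = 0.111), which passed in 3 of 30 alternative fits, without the WT muscle A57 among them. For Ckmt2 the difference was -0.34 (SE 0.31, edgeR adjusted p = 0.583) and for Prkaa2 -0.19 (SE 0.33, edgeR adjusted p = 0.835), so that a heart effect that passed and a muscle effect that did not were not shown to differ for these 2 genes.

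**Figure D5:**
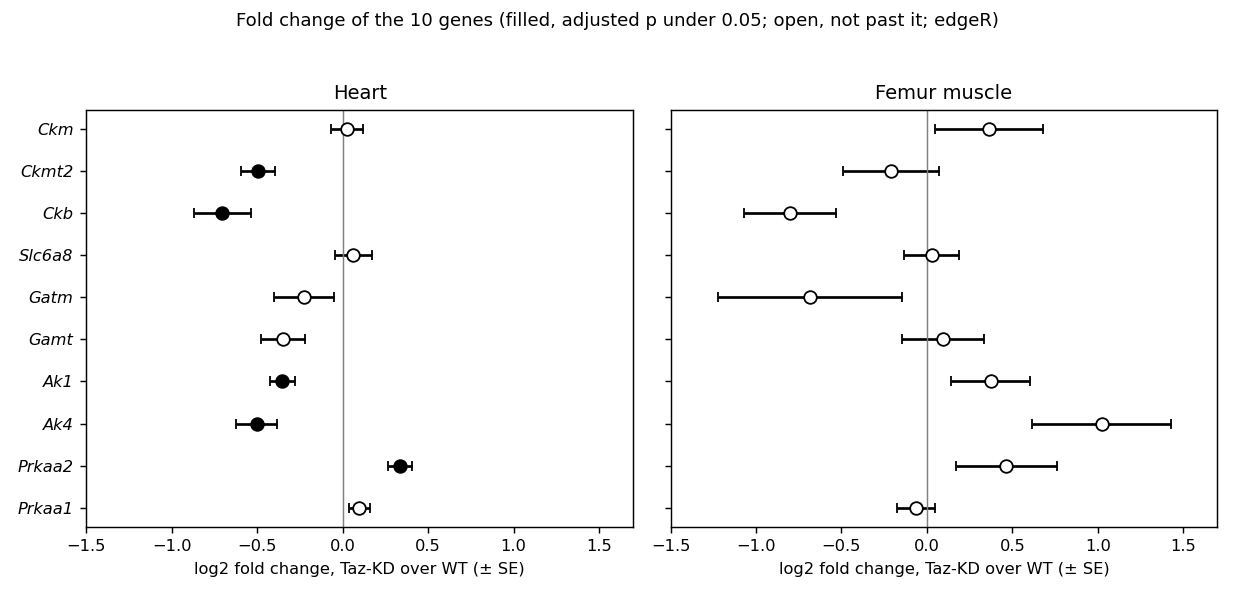
Log2 fold changes (Taz-KD over WT, points) with their standard errors (bars) for the 10 genes in heart and in femur muscle, filled where the edgeR adjusted p was under 0.05. In heart 4 filled points lie left of 0 and Prkaa2 lies right of it at 0.33, while in muscle no point is filled and the bars are wider for all 10 genes.

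Among the further lists, Slc25a5 and Nt5e passed the interaction test, as did 4.62% of all 20612 genes in it. Slc25a5 averaged 45.3 ± 6.96 CPM in Taz-KD muscles and 47.1 ± 12.8 CPM in WT muscles, and its heart effect exceeded its muscle effect by 1.20 on the log2 scale (SE 0.20, edgeR adjusted p = 0.00128). Nt5e averaged 1.22 ± 0.215 CPM in Taz-KD muscles and 2.84 ± 1.597 CPM in WT muscles, a log2 fold change of -1.22 that did not pass by itself, and the difference between heart and muscle was 2.18 (SE 0.36, edgeR adjusted p = 0.00150). The WT muscle A33, with the highest adipocyte marker sum, also had the highest Nt5e of the muscles, at 5.48 CPM.

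Levels were compared between genes only per kilobase of annotated exon. In heart the order in WT mice was Ckmt2 (638.8 ± 48.1 CPM per kb), Ckm (351.0 ± 39.1), Ak1 (155.8 ± 13.4), Slc6a8 (31.9 ± 4.13) and Prkaa2 (31.0 ± 2.59), and then Ckb (9.77 ± 1.46), Ak4 (6.09 ± 0.747), Prkaa1 (5.99 ± 0.344), Gamt (2.98 ± 0.365) and Gatm (0.994 ± 0.240). Slc6a8 and Prkaa2 did not differ beyond their spread, and neither did Ak4 and Prkaa1. In Taz-KD hearts Ckmt2 remained first at 453.5 ± 66.3 CPM per kb and Ckm second at 357.6 ± 37.3, with their ranges overlapping, which they did not in WT hearts. Prkaa2 stood at 39.1 ± 2.35 CPM per kb in Taz-KD hearts, ahead of Slc6a8 at 33.3 ± 4.49, and these ranges overlapped. Within every single Taz-KD heart, however, Ckmt2 exceeded Ckm and Prkaa2 exceeded Slc6a8. Ckb, at 6.00 ± 1.49 CPM per kb in Taz-KD hearts, was level with Prkaa1 at 6.41 ± 0.347.

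In muscle Ckm stood first at 5043 ± 958 CPM per kb in Taz-KD mice and 3927 ± 1703 in WT mice. Ak1 had 585.2 ± 74.0 CPM per kb in Taz-KD muscles and 452.1 ± 147 in WT muscles, and Ckmt2 had 581.9 ± 174.1 in Taz-KD muscles and 673.8 ± 234.4 in WT muscles, without a difference beyond spread between the 2 genes in either genotype. Prkaa2 and Slc6a8 followed, overlapping each other, and Gamt, Prkaa1, Ckb, Ak4 and Gatm were all under 10 CPM per kb on average. Among WT mice, Ckm averaged 351.0 CPM per kb in heart and 3927 in muscle, and Ak4 6.09 in heart and 0.548 in muscle, each scaled within its own table. The order kept all 10 places in WT mice when the longest transcript replaced the exon length, and 8 of 10 in Taz-KD mice, where Prkaa2 and Slc6a8 changed places.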

How the data were processed

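Heart and femur muscle RNA was made into strand-marking libraries without ribosomal RNA and read as 150 bp pairs. The deposited tables hold whole-number counts per Ensembl gene, which the authors made with STAR and featureCounts 1.6.4 on mm10 (GRCm38). No source used here gives the annotation release, strand setting or handling of multimapped reads, and counts of similar or overlapping genes are therefore uncertain. Symbols came from GENCODE M21, which matched 46574 of 47069 heart and 53706 of 53801 muscle rows.

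Each tissue was fitted separately with edgeR 4.0.16 in R 4.3.3 (filterByExpr, TMM, robust quasi-likelihood F test, Benjamini-Hochberg adjustment over all genes tested, threshold 0.05), Taz-KD over WT with 5 libraries each and no covariate. A tissue by genotype interaction was fitted over all 20 libraries. Its heart minus muscle differences rest on that fit's own filter, scaling and spread. They need not equal the differences between the fold changes of the separate tissue fits. Alternatives were DESeq2 1.42.0, limma-voom 3.58.1, other scalings and filters, and sets of libraries left out. Those leaving out A33 with A55, or R3 with R1793 and R1797, quality weights, and the variants of the isoform shares were chosen after seeing the data. Fits were also run on simulated data, and the outcome is not reported here. Near-identical transcripts were sought with blastn 2.17.0 (at least 100 bases at 90% identity). The members and lists were chosen with earlier results of these data known. Named are all 10 members, per list up to 3 genes with the smallest adjusted p past 0.05, and any past it in both tissues or in the interaction. Slc25a4, Vdac1, Nt5c2, Nme4 and Ampd3, and Mthfd2 and Setd5 in muscle, fall outside this rule and were named after their values were seen. Not every gene of these pathways is reported here. Promoters came from RefSeq (GRCm38.p6). Raw counts, not the CPM, entered the tests. Each SE was worked back from the edgeR test, as the absolute log2 fold change divided by the square root of its F statistic.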

Additional observations from a re-analysis of the deposited data

Results flagged for a closer look

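Ak4 was flagged because its knockdown effect passed the test for a difference between the tissues, a call lost in 16 of 30 alternative fits. In the joint fit, the heart log2 fold change minus that in muscle was -1.61 (SE 0.42, edgeR adjusted p = 0.0341). The separate tissue fits gave -0.50 in heart and 1.02 in muscle, and the muscle value was 0.58 without the Taz-KD muscle A39.

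The same test, which 4.62% of all 20612 genes in it passed, was also passed by 2 genes of the further lists. For Nt5e the heart minus muscle difference was 2.18 (SE 0.36, edgeR adjusted p = 0.00150), and it passed in all 30 alternative fits. For Slc25a5 it was 1.20 (SE 0.20, edgeR adjusted p = 0.00128), and it too passed in all 30.

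Over 44 groups of 5 libraries (the 10 genes and Taz in each tissue and genotype), 1 library was flagged as apart from its group. This was the Taz-KD muscle A58, with 15.2 CPM of Taz, against 12.7 to 13.4 CPM in the other Taz-KD muscles and 45.9 CPM in the lowest WT muscle. Its gap to the nearest library was 0.710 of the group's range, only just past the limit used. Chance sets apart about 1 in 20 such groups.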

How the results depend on the processing

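Fold changes were recomputed in 22 alternative fits per tissue and 30 for the interaction, for the 10 genes and the 17 list genes called in heart, and none that was called turned its direction. Taz was recomputed in the 22 fits of each tissue and passed in all of them. In one fit of all 20 libraries, the heart count of all genes was 2087 and that of the 10 genes 1, and the muscle count of all genes was 167. DESeq2 called 144 genes in muscle and 1596 in the interaction, 2 of them (Ak1 and Ak4) among the 10. None of the 10 passed the interaction with limma-voom (0) or without a filter (0). Leaving out 1 library at a time gave 3 to 5 genes in muscle, 607 to 2042 in the interaction, with 0 to 2 of the 10, and 3930 to 4616 in heart, with all 5 kept. The interaction count was lowest without the Taz-KD heart R1796 and highest without the WT muscle A57, and the muscle count highest without the Taz-KD muscle A52. The cause of these shifts was not tested. Scaling by library size only moved the median log2 fold change of all muscle genes to -0.16, against -0.02, and that of the interaction to 0.21, against 0.02. The sign of uncalled genes near 0, such as Slc6a8, Gamt and Prkaa1 in muscle, changed in 2 to 5 fits. No paired analysis was possible because the groups carry different animal numbers. The SE of the 10 genes' log2 fold changes was 0.06 to 0.18 in heart and 0.11 to 0.54 in muscle.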
